A study of Mus musculus with 32 samples.

Results

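The genes described here are the 4 adult hemoglobin genes Hba-a1, Hba-a2, Hbb-bs and Hbb-bt together with Alas2, which makes 5 of the 54532 genes counted in whole mouse kidney. They were taken by gene name, and they had been picked because their RNA was lower after cisplatin in these same libraries. Their levels over the days are therefore given as a description without a test. Tests were kept for the comparison of the sexes, for ratios between members, and for genes outside this group.

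Cisplatin, a platinum drug that damages the kidney tubule, was given to wild-type C57BL/6 mice as 1 intraperitoneal dose of 20 mg/kg, and kidney RNA was sequenced for Day 0 and for Day 2, Day 3 or Day 5 after the dose. Each sex and day held 4 mice, for 8 groups and 32 libraries, with mice 6 to 8 weeks old. The Day 0 males carry no treatment in the sample labels and the Day 0 females are labelled as treated, whereas the study describes all Day 0 mice as healthy, and they are used here as the untreated groups. Whole kidney tissue was sequenced, the sources used here do not say whether blood was flushed out of it, and in bulk tissue fewer cells of a type and less RNA per cell cannot be told apart.

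Hemoglobin is assembled from alpha chains and beta chains, each of which holds 1 heme group. Alas2 encodes the erythroid form of 5-aminolevulinate synthase, which begins heme synthesis in developing red cells, whereas Alas1 serves the same step in other tissues. Circulating red cells of the mouse have no nucleus, and their youngest form, the reticulocyte, still carries a remnant of globin RNA, so that whole organs usually give some globin reads from the blood within them.

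Library totals ran from 16502107 to 35961325 counts, and 3 counts, taken here as the floor, corresponded to between 0.0690 and 0.464 CPM (counts scaled to a common library size). Counts were scaled with TMM factors, which correct the library sizes for composition. Xist, which is transcribed from the inactive X chromosome of females, had 4153 counts in the library labelled male Day 5 mouse 1, where Y-linked genes had 387 counts, and this goes against its label. Lower counts of the other sex's genes were also found elsewhere, with up to 242 counts of Xist in Day 0 males, 59 to 260 in male Day 5 mice 2 to 4, and 5 to 221 counts of Y-linked genes in Day 0 females. Mitochondrial genes took between 4.49% and 24.0% of the counts at Day 0 and between 4.87% and 14.0% at Day 2 and Day 3. At Day 5 they took 42.5%, 78.9%, 79.8% and 79.7% in male mice 1 to 4 and 31.6%, 77.9%, 22.2% and 9.30% in female mice 1 to 4. Female Day 0 mouse 2 held 599 CPM of Hpx, a plasma protein gene of the liver, against at most 18.8 CPM in the other libraries.

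The alpha genes lie on chromosome 11 and the beta genes on chromosome 7, in GRCm38 coordinates. Hba-a1 covers chr11:32283511-32284465 and Hba-a2 covers chr11:32296489-32297298, both on the plus strand with 12023 bases between them. Hbb-bt covers chr7:103812524-103813996 and Hbb-bs covers chr7:103826534-103828096, both on the minus strand with 12537 bases between them. Alas2 covers chrX:150547375-150570638 on the plus strand. The 5 loci thus sit on 3 chromosomes, and the genes within each cluster are near copies of each other. Between Hba-a1 and Hba-a2, 51.6% and 34.3% of the 150-base windows of their coding transcripts were absent from the other gene, and for Hbb-bs and Hbb-bt these shares were 50.1% and 49.3%. The split of reads between copies is uncertain for that reason. How reads that match both copies were counted is not given in the sources used here, and its effect on the copies or on their sums was not tested.

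The sequences just upstream of the genes are shown because the members moved together across the libraries while lying on different chromosomes. The windows are RefSeq's on GRCm38.p6 and hold the 250 bases before the RefSeq start of each gene, read along the strand of the gene. All 5 members matched a window. Capitals mark the GATA motif (GATA with A or T before it and A or G after it), the CACCC motif, the CCAAT box and the TATAA motif, each searched on both strands, so that a match on the other strand is printed as its complement. The windows are chr11:32296242-32296491 (plus), chr7:103827929-103828178 (minus), chr7:103813924-103814173 (minus) and chrX:150547167-150547416 (plus). The gene starts of the annotation used for counting lie upstream of the RefSeq starts, by 3 bases for Hba-a2, 168 for Hbb-bs, 73 for Hbb-bt and 42 for Alas2.
Hba-a2: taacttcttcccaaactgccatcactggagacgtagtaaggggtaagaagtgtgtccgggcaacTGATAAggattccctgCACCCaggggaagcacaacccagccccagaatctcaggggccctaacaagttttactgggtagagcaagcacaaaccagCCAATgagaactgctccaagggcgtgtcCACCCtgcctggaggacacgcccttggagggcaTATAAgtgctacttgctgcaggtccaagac
Hbb-bs: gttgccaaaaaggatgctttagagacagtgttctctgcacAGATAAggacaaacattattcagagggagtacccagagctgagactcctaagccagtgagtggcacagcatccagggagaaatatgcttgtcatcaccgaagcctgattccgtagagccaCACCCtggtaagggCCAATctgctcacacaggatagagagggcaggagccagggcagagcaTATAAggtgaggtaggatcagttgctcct
Hbb-bt: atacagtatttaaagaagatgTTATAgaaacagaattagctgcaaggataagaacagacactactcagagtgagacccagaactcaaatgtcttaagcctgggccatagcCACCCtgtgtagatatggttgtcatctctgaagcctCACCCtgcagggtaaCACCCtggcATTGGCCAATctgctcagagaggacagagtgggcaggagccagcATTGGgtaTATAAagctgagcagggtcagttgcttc
Alas2: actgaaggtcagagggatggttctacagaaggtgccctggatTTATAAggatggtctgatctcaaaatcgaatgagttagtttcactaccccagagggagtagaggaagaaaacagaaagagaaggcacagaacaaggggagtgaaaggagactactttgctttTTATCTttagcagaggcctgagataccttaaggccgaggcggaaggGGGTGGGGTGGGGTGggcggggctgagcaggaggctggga

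The Hba-a1 window, chr11:32283422-32283671, shared a run of 247 bases with that of Hba-a2 and is not printed. The GATA motif, which GATA factors of erythroid cells can bind, was found in the windows of Hba-a1, Hba-a2, Hbb-bs and Alas2. These letters were not in the window of Hbb-bt. CACCC, a motif bound by KLF factors, was in all 5 windows, with 3 matches each in Hbb-bt and Alas2. Among 32817 windows of the same length over all genes, 26.6% held a GATA match, 52.0% CACCC, 33.8% CCAAT and 22.8% TATAA, and 11.8% held both GATA and CACCC. The beta windows were 70.9% identical to each other by global alignment, and those of Hba-a1 and Hbb-bs 48.5%. The matches describe these letters only.

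**Figure D1:**
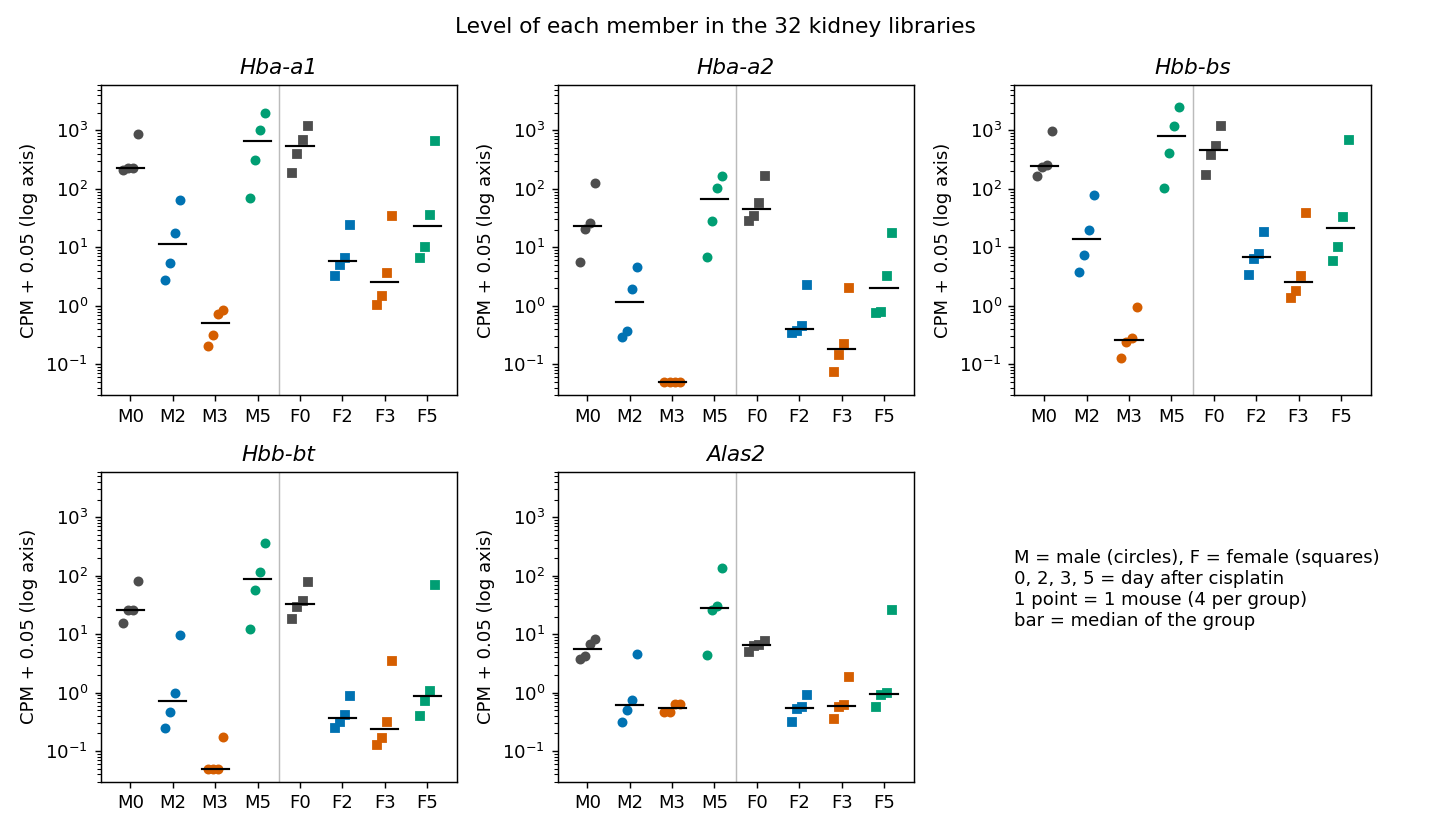
Level of each member in CPM with 0.05 added, on a log axis, in the 8 groups of 4 mice. Points are single mice and bars are medians. In every panel the Day 2 and Day 3 medians sit below the Day 0 median of the same sex, and the male Day 3 libraries hold 0 CPM of Hba-a2.

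Alpha globin RNA was abundant at Day 0 and almost gone from male kidneys at Day 3. Hba-a1, an adult alpha chain gene, stood at 229, 228, 856 and 211 CPM in male Day 0 mice 1 to 4. It stood at 65.7, 5.27, 2.76 and 17.3 CPM at Day 2 and at 0.788, 0.155, 0.264 and 0.663 CPM at Day 3. Every male Day 2 library lay below every Day 0 library, and every Day 3 library below every Day 2 library. At Day 5 the male libraries held 70.8, 2011, 313 and 1020 CPM, so that mouse 1 lay below the Day 0 range and mice 2 and 4 above it.

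In female mice Hba-a1 was at 397, 673, 1174 and 190 CPM at Day 0. It was at 24.1, 3.13, 5.02 and 6.52 CPM at Day 2 and at 1.40, 34.3, 3.55 and 1.001 CPM at Day 3. The Day 2 and Day 3 libraries lay below all Day 0 libraries and overlapped each other, with mouse 2 the highest at Day 3. At Day 5 mice 1, 3 and 4 stayed low at 6.51, 36.0 and 9.97 CPM, whereas mouse 2 reached 657 CPM, within the Day 0 range. Mean levels were 16.7-fold lower than at Day 0 in males at Day 2 and 816-fold lower at Day 3, and 62.7-fold and 60.5-fold lower in females. The fitted log2 fold changes were -4.11 (SE 1.03) and -9.72 (SE 0.83) in males and -6.03 (SE 0.86) and -5.99 (SE 1.30) in females.

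Hba-a2, the second adult alpha gene, followed Hba-a1 at a lower level. Its male libraries held 5.50, 20.4, 125 and 26.3 CPM at Day 0 and 4.51, 0.323, 0.243 and 1.89 CPM at Day 2. At Day 3 no male library held a single count, which puts the Day 3 mean at least 377-fold lower than Day 0 when each library is set at the floor of 3 counts. At Day 5 male mice 1 to 4 held 6.76, 163, 28.1 and 105 CPM, all within or above the Day 0 range. The female libraries held 34.5, 57.8, 166 and 28.5 CPM at Day 0, 2.25, 0.296, 0.316 and 0.401 CPM at Day 2, and 0.0250, 2.002, 0.0940 and 0.172 CPM at Day 3. Hba-a2 was the only member whose female Day 5 libraries, at 0.704, 17.3, 3.22 and 0.737 CPM, all remained below Day 0, with a fitted log2 fold change of -3.79 (SE 1.19). Hba-a2 made up between 1.75% and 14.6% of the alpha globin counts in all groups but male Day 3, where it was at 0.

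Beta globin RNA followed the same course. Hbb-bs, the adult beta chain gene with the higher level in these kidneys, was at 255, 234, 968 and 167 CPM in male mice 1 to 4 at Day 0. It was at 79.5, 7.47, 3.69 and 19.9 CPM at Day 2 and at 0.912, 0.0773, 0.189 and 0.234 CPM at Day 3. The 3 male groups did not overlap, and the Day 3 libraries held 35 counts in all. At Day 5 the values were 105, 2541, 408 and 1170 CPM, again with mouse 1 below the Day 0 range and mice 2 and 4 above it.

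Female Hbb-bs was at 383, 538, 1170 and 171 CPM at Day 0. It was at 18.3, 3.38, 6.23 and 7.61 CPM at Day 2, at 1.77, 38.9, 3.22 and 1.29 CPM at Day 3, and at 5.88, 692, 32.4 and 10.2 CPM at Day 5. Mouse 2 was the high library at Day 3 and at Day 5, and without it the Day 5 mean would be 16.2 CPM against 565 CPM at Day 0. The mean was 14.7-fold lower than at Day 0 in males at Day 2 and 1150-fold lower at Day 3, and 63.7-fold and 50.1-fold lower in females. The fitted log2 fold changes were -3.92 (SE 1.03) and -10.23 (SE 0.997) in males and -6.05 (SE 0.76) and -5.72 (SE 1.29) in females.

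Hbb-bt, the minor adult beta gene here, held 25.7, 26.2, 81.4 and 15.4 CPM in males at Day 0 and 9.52, 0.420, 0.203 and 0.926 CPM at Day 2. At Day 3 male mouse 1 held 0.124 CPM and the other 3 mice none, which is 3 counts in all. The mean CPM of Day 0 was 1266 times the level that these 3 counts give over the 4 library sizes together, with a counting interval of 433 to 6138. At Day 5 the males held 12.3, 369, 57.6 and 115 CPM. Mouse 1 was again the lowest male library of Day 5 and mouse 2 the highest. Female values were 29.5, 36.6, 79.2 and 17.8 CPM at Day 0, 0.840, 0.197, 0.258 and 0.364 CPM at Day 2, and 0.0749, 3.45, 0.258 and 0.114 CPM at Day 3. At Day 5 the females held 0.669, 69.9, 1.003 and 0.347 CPM, with mouse 2 alone inside the Day 0 range.

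Alas2, the erythroid heme enzyme gene, had a smaller median than each globin at Day 0 in both sexes. At Day 2 and Day 3 it was lower than at Day 0 by a smaller factor than the globins. By male Day 3 its median of 0.497 CPM lay above that of each globin. In females at Day 2 and Day 3 the Alas2 median lay above those of Hba-a2 and Hbb-bt. Its male libraries held 8.33, 6.80, 4.11 and 3.65 CPM at Day 0, 4.45, 0.452, 0.690 and 0.259 CPM at Day 2, and 0.415, 0.580, 0.415 and 0.585 CPM at Day 3. Male Day 2 mouse 1 overlapped Day 0, and the Day 3 libraries lay between the other Day 2 libraries. At Day 5 the males held 4.36, 134, 25.5 and 30.5 CPM, with mice 2, 3 and 4 above every Day 0 library. The fitted log2 fold change was -1.95 (SE 0.80) at Day 2, -3.52 (SE 0.33) at Day 3 and 3.19 (SE 0.85) at Day 5.

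Female Alas2 was at 6.47, 6.33, 4.98 and 7.45 CPM at Day 0, at 0.874, 0.469, 0.258 and 0.510 CPM at Day 2, and at 0.300, 1.77, 0.517 and 0.572 CPM at Day 3. At Day 5 it was at 0.528, 26.2, 0.934 and 0.867 CPM. Day 2 and Day 3 lay below Day 0 in every mouse, and at Day 5 mouse 2 alone exceeded Day 0 while the other 3 mice stayed below it. The fitted log2 fold changes were -3.63 (SE 0.41), -3.04 (SE 0.52) and 0.15 (SE 1.15). Among the 4 male mice of Day 0 and of Day 3, the highest and lowest Alas2 values lay closer together than those of Hba-a1 or Hbb-bs.

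**Figure D2:**
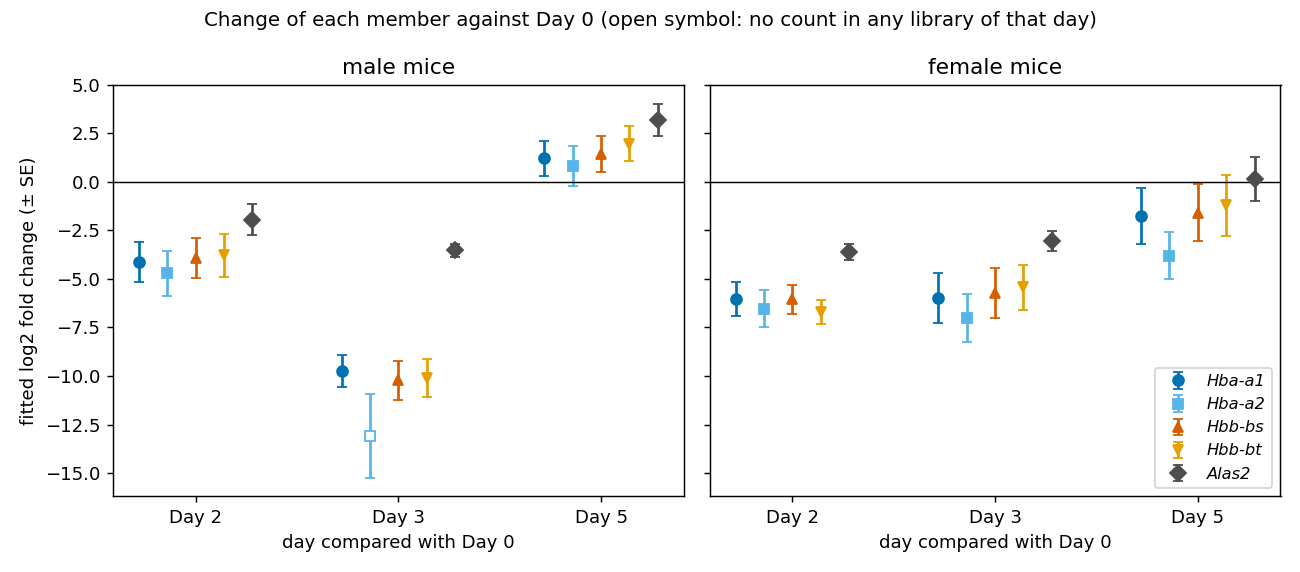
Fitted log2 fold change of each member against Day 0 of the same sex, with its standard error, at Day 2, Day 3 and Day 5. The open symbol marks Hba-a2 in males at Day 3, which had no count, so that its plotted value depends on the prior count and is no estimate of size. In both sexes Alas2 lies closer to 0 than the 4 globins at Day 2 and Day 3.

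Over the 5 members the median log2 fold change was -3.92 in males at Day 2 and -10.11 at Day 3 (-9.72 with Hba-a2 at its bound, and -8.56 with Hbb-bt also set at 3 counts in each library), and -6.05 and -5.72 in females. The median over all genes tested was between 0.02 and 0.04 in all 6 contrasts with Day 0. All 5 members passed the filter on low counts in each of these contrasts. The Day 2 libraries did not overlap Day 0 for 4 of 5 members in males, where 10.8% of all genes tested lay wholly below Day 0, and for 5 of 5 in females, where 6.09% did. At Day 3 this held for 5 of 5 members in males and 5 of 5 in females, against 16.2% and 8.53% of all genes. At Day 5, 1 of 5 members lay wholly below Day 0 in females, against 3.56% of all genes, and 0 of 5 lay wholly above Day 0 in males, against 10.4%. The members were chosen on these contrasts, so the counts describe them only.

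Single libraries carried much of the size of several of these values. Without male Day 2 mouse 1 the median in males at Day 2 was -5.54, and without female Day 3 mouse 2 the median in females at Day 3 was -8.13. Without female Day 5 mouse 2 the median in females at Day 5 went from -1.59 to -5.16, and Alas2 went from 0.15 to -3.04. In males at Day 5 the median of 1.44 was 0.53 without mouse 2, whereas Alas2 was then 1.91. Without the library labelled male Day 5 mouse 1, Hba-a1 was at 1.63, Hbb-bs at 1.84 and Alas2 at 3.59. Leaving out Day 0 mouse 3, in each sex the highest globin library of Day 0, moved the male Day 5 median to 2.41 and the female one to -0.96.

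**Figure D3:**
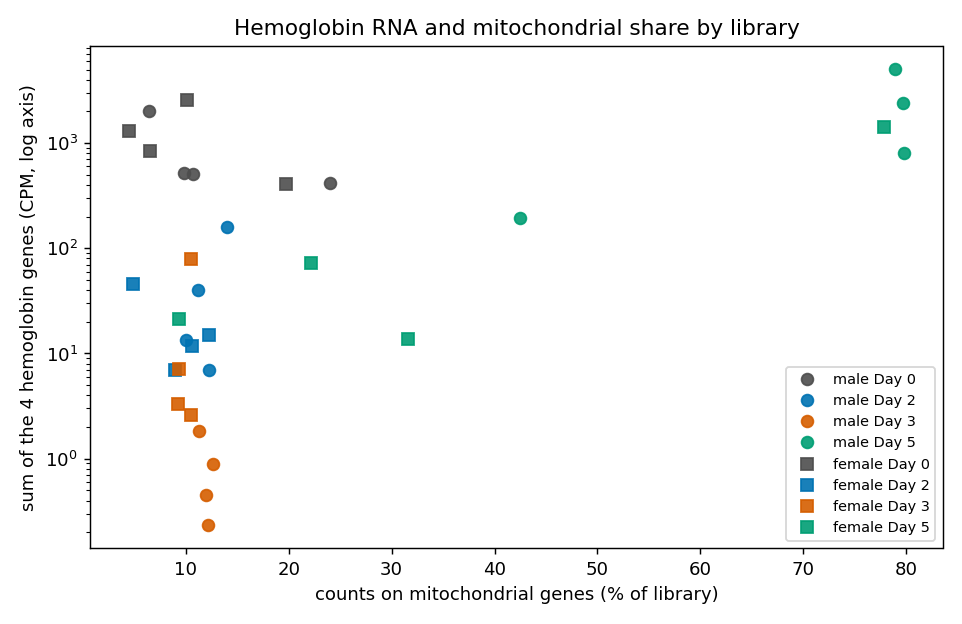
Sum of the 4 hemoglobin genes in CPM (log axis) against the share of counts on mitochondrial genes, with 1 point for each of the 32 libraries. The 4 libraries with a mitochondrial share of 77.9% or more are also the 4 Day 5 libraries with the highest sums, and the Day 2 and Day 3 libraries have shares of 4.87% to 14.0% and sums of 0.232 to 159 CPM.

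Day 5 was uneven in both sexes. The summed globin level was 195, 5084, 807 and 2411 CPM in male Day 5 mice 1 to 4 and 13.8, 1436, 72.6 and 21.2 CPM in female Day 5 mice 1 to 4. The 4 Day 5 libraries with the highest sums were male mice 2, 3 and 4 and female mouse 2, which are those with 77.9% to 79.8% of their counts on mitochondrial genes. Among the other 3 females the library with the highest mitochondrial share, mouse 1 at 31.6%, had the lowest sum. The direction in males at Day 5 depended on the scaling: without TMM factors the median log2 fold change of the members was -0.13 in place of 1.44, and in females it was -2.96 in place of -1.59. The median over all genes moved in the same step from 0.04 to -1.15 in males and from 0.03 to -0.22 in females. Of all genes called in males at Day 5, 574 were higher and 553 lower with TMM factors, against 83 and 3986 without them. Without these factors Hba-a1, Hba-a2 and Hbb-bs in males at Day 5 were at -0.36, -0.71 and -0.13, whereas Hbb-bt was at 0.38 and Alas2 at 1.49, and Alas2 in females at Day 5 was at -1.23. As a plain share of all counts, the globin sum had a median of 0.0524% in males at Day 5 against 0.0567% at Day 0. Day 5 and a high mitochondrial share cannot be told apart in male mice. At Day 2 and Day 3 the mitochondrial share ran from 4.87% to 14.0% and the summed level from 0.232 to 159 CPM. The part of the mitochondrial share in the Day 5 levels was not tested.

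The order of the groups was alike for the 4 globins. By median TMM-scaled CPM, each was highest in male Day 5 (a place that rests on the TMM factors), followed by female Day 0, male Day 0, female Day 5, male Day 2, female Day 2, female Day 3 and male Day 3. Neighbours in this order overlapped in their ranges, apart from female Day 3 and male Day 3 for Hba-a1, Hba-a2 and Hbb-bs. Alas2 began with the same 5 groups, and its lowest 4 medians, from 0.489 to 0.571 CPM, lay in overlapping groups at male Day 2, female Day 3, male Day 3 and female Day 2.

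Per length, in the deposited FPKM (fragments scaled by gene length and sequencing depth), the median at Day 0 in males was 271 for Hba-a1, 34.5 for Hba-a2, 306 for Hbb-bs, 35.5 for Hbb-bt and 2.29 for Alas2. In females it was 647, 67.9, 588, 46.1 and 2.61 FPKM in the same order. The pair Hba-a1 and Hbb-bs thus held most of the alpha and most of the beta signal in both sexes.

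Whether males and females differed was not used to choose the members, and each was tested with edgeR's quasi-likelihood test at an adjusted p under 0.05 (Benjamini-Hochberg over all genes) and an absolute log2 difference over 1.5. None of the 18 comparisons of a member that could be tested passed, and 4 of them had an unadjusted p under 0.05. At Day 0, 0 of 5 members were called, against 0.362% of all genes, with adjusted p between 0.906 and 0.982. Males minus females, Hba-a1 was at -0.66 (interval of 2 SE, -1.98 to 0.66), Hbb-bs at -0.46 (-1.88 to 0.96) and Alas2 at -0.14 (-0.77 to 0.49). At Day 2, 0 of 5 were called, against 0.813%, and the member nearest to a call was Hbb-bt at 2.81 (0.65 to 4.98) with an adjusted p of 0.256.

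At Day 3, Hba-a2 and Hbb-bt did not pass the filter on low counts in the comparison of the sexes, and 0 of the other 3 members were called, against 1.93% of all genes. Hba-a1 averaged 0.467 CPM in males and 10.1 CPM in females, and every male library lay below every female library. The same held for Hbb-bs, at 0.353 and 11.3 CPM. Their log2 differences were -4.42 (-7.23 to -1.61) and -5.01 (-8.01 to -1.999), with edgeR adjusted p of 0.0601 and 0.0513. Both genes passed the filter through the female libraries, as male libraries held 4 to 19 counts of Hba-a1 and 2 to 22 of Hbb-bs. Their p values and calls at Day 3 are therefore given as a description only. Among all genes tested, 25.3% did not overlap between the sexes at Day 3. The call depended on single libraries: Hba-a1 and Hbb-bs were called when female Day 3 mouse 2 was left out, at smaller differences of -2.08 and -2.58, and also when female Day 3 mouse 4 was left out. Alas2 differed by -0.66 (-1.71 to 0.39).

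At Day 5, 0 of 5 members were called between the sexes, against 0.236% of all genes. Hba-a2 had the largest difference, at 4.02 (1.502 to 6.53) with an edgeR adjusted p of 0.157 (0.0329 and called with DESeq2), from 75.9 CPM in males and 5.50 CPM in females. Without the library labelled male Day 5 mouse 1 its difference was 4.52 and the adjusted p 0.0622. Without female Day 5 mouse 2, 1 member was called, Hbb-bt at 7.79. The interaction of sex and day, which asks whether the change from Day 0 differed between the sexes, gave 0 of 5 members at Day 2 and at Day 5, against 0% and 0.231% of all genes. At Day 3 it gave 0 of 3, against 0.0114%, with Hba-a2 and Hbb-bt left out because males then held 0 and 3 counts of them. Its smallest edgeR adjusted p over these members were 0.9999, 0.546 and 0.198 at Day 2, Day 3 and Day 5, and 4 of the 13 tests had an unadjusted p under 0.05. Without female Day 5 mouse 2, 4 members passed at Day 5.

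**Figure D4:**
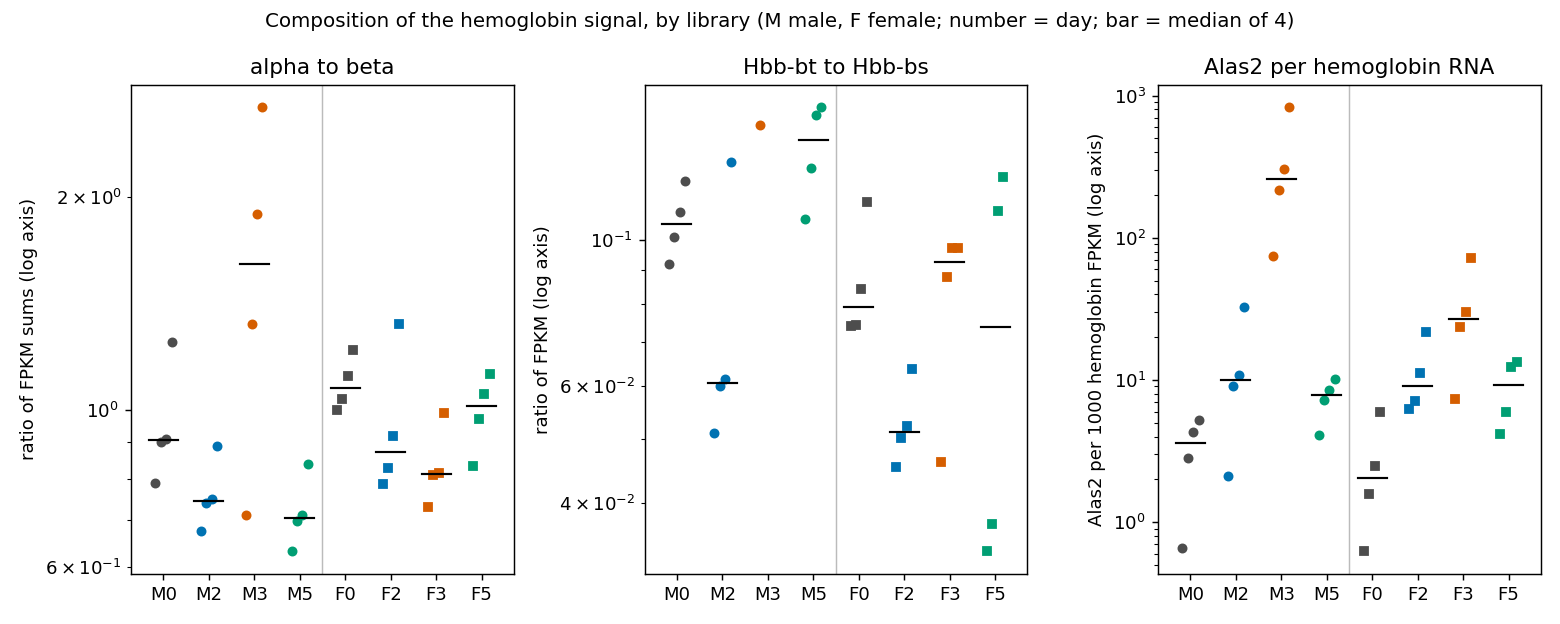
Ratio of alpha to beta globin FPKM, ratio of Hbb-bt to Hbb-bs FPKM, and Alas2 FPKM per 1000 hemoglobin FPKM, on log axes, by library, with the median where all 4 libraries of a group gave a value. The 3 male Day 3 libraries with no Hbb-bt count are left out of the middle panel. Alas2 per hemoglobin RNA is higher at Day 2 and Day 3 than at Day 0 in median, most so in males at Day 3. The male Day 3 values rest on few counts.

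Ratios between members were formed within each library. The ratio of alpha to beta FPKM had medians of 0.907 in males and 1.08 in females at Day 0, 0.744 and 0.873 at Day 2, 1.61 and 0.812 at Day 3, and 0.704 and 1.01 at Day 5. The male Day 3 ratio rests on few counts and ran from 0.711 to 2.68. The ratio of Hbb-bt to Hbb-bs FPKM had medians of 0.105 and 0.0792 at Day 0, 0.0608 and 0.0512 at Day 2, and 0.141 and 0.0738 at Day 5, and 0.0924 in females at Day 3. The 7 sex comparisons of these ratios had a smallest adjusted p of 0.2 by a two-sided exact permutation test. Since 0.0286 is the smallest p that 4 mice against 4 allow, a single ratio could not have passed after adjustment over all 7, and the absence of a call says little about a difference.

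Relative to the globins, Alas2 was higher at Day 3 than at Day 0. Alas2 FPKM per 1000 hemoglobin FPKM was 5.26, 4.34, 0.653 and 2.82 in male Day 0 mice 1 to 4 and 73.9, 829, 303 and 217 at male Day 3. No male Day 3 library overlapped Day 0 in this ratio. The male Day 3 ratios rest on few counts, with 44, 6, 12 and 23 globin counts in mice 1 to 4. The same libraries held 10 to 15 counts of Alas2. In females it was 2.49, 1.58, 0.623 and 5.91 at Day 0 and 29.9, 7.32, 23.7 and 71.5 at Day 3, again without overlap. The medians at Day 2 were 9.97 in males and 9.12 in females, and those at Day 5 were 7.85 and 9.18. Since both parts of the ratio come from the contrasts on which the members were chosen, it was not tested.

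Other genes of red cells were counted from a list of 40, of which 39 were in the table and 21 to 24 passed the filter on low counts in each contrast with Day 0. At Day 3 the list had 1 of 22 genes called lower in males and 1 of 24 in females, beside 1.84% and 1.97% of all genes. With the mouse number as a block this count was 0 in both sexes, without TMM factors it was 0 in females, and in females 6 of the 8 fits that leave out 1 mouse also gave 0, with Day 0 mice 1, 2 and 3 or Day 3 mice 1, 3 and 4 left out. At Day 2 the list had 0 genes called in either sex, against 0.199% and 0.883% lower among all genes. The median of the list at Day 3 was 0.02 in males and 0.05 in females, close to all genes.

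In males at Day 5, Isg20 and Tent5c of this list rose by 2.82 and 1.74 on the log2 scale, with edgeR adjusted p of 0.0263 and 0.0285. These libraries held 42.5% to 79.8% mitochondrial counts, and without TMM factors the values were 1.18 and 0.24 with no call. The call of Isg20 was lost without Day 0 mouse 1 or 2 or Day 5 mouse 2, 3 or 4, and that of Tent5c without any of these or Day 0 mouse 3, and with the block. Isg20 encodes an exonuclease induced by interferon, and Tent5c a poly(A) polymerase that is also expressed in B cells. These were 2 of 21 genes tested, beside 3.83% of all genes called higher. In females at Day 5, 0 of 22 genes of the list were called, against 0.0615% lower and 0.166% higher among all genes. Slc4a1, the anion exchanger of red cells, is also made by intercalated cells of the collecting duct, and its log2 fold changes ran from -0.54 to 0.74 over the 6 contrasts with no call.

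Markers more restricted to red cells and their precursors were near 0 in most libraries. Of 14 such genes, 13 were in the table, 1 or 2 passed the filter in a contrast, and 0 were called. At Day 0 their sum lay between 3.43 and 6.01 CPM in males and between 1.58 and 4.37 CPM in females. It ran from 3.65 to 5.85 CPM at Day 2 over both sexes, and from 3.52 to 5.52 CPM at Day 3. At Day 5 it lay between 3.71 and 15.2 CPM in males, and between 3.39 and 7.50 CPM in females. Most of this sum was Klf1, an erythroid transcription factor gene, which made up 70.5% to 79.6% of it in group means outside male Day 5 and 14.8% there. Its group means ran from 1.21 CPM (male Day 5) to 3.99 CPM (male Day 2), so that the sum says little of the other 12 genes. Together these held between 0.516 and 1.64 CPM in the libraries other than male Day 5 mice 2 to 4, where they held 14.9, 5.87 and 5.67 CPM, from 106, 38 and 42 counts. Male Day 0 libraries held 20 to 45 counts of them.

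**Figure D5:**
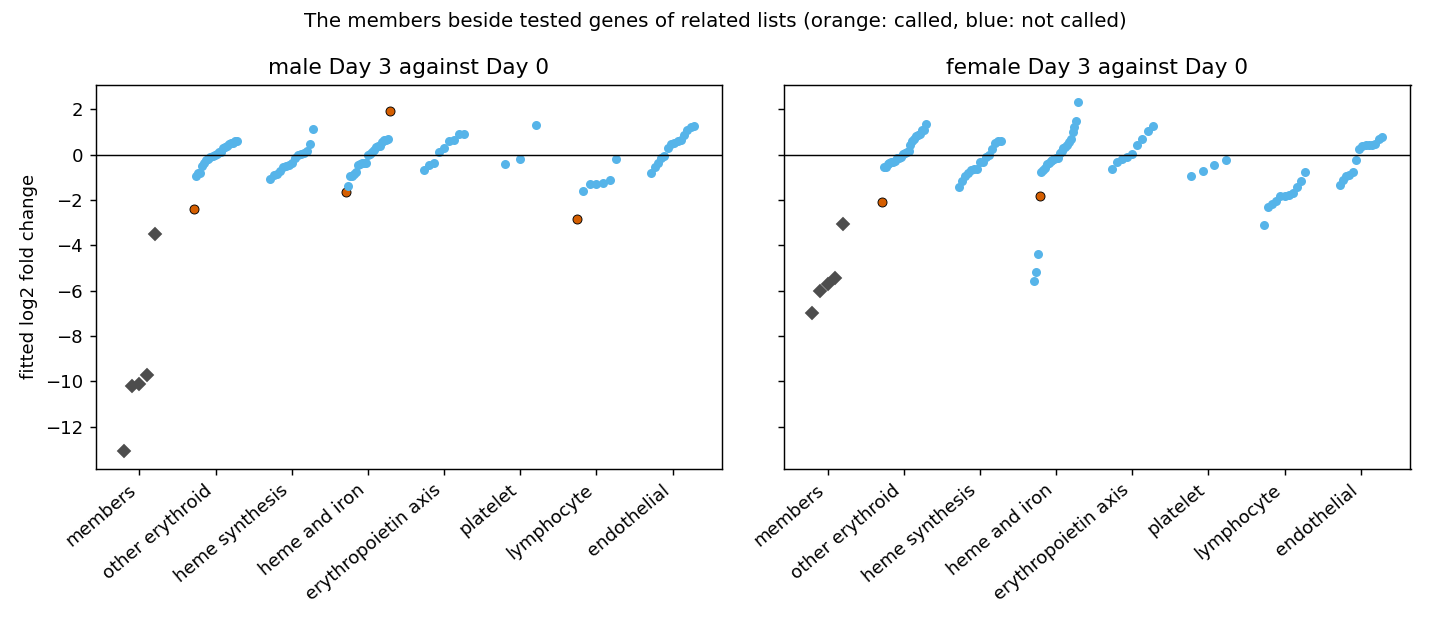
Fitted log2 fold change at Day 3 against Day 0 in each sex, for the 5 members and for the tested genes of 7 lists. Diamonds are members, orange points were called and blue points were not. The members lie at or below -3.04, and the genes of the erythroid list lie above every member in both sexes.

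Heme synthesis genes other than Alas2 gave no call at Day 2 or Day 3. All 15 listed genes were tested, and 0 were called in either sex at Day 2 or Day 3, beside 0.199% to 1.97% of all genes called lower. In males at Day 3, 5 of the 15 were lower and 1 higher at an edgeR adjusted p under 0.05, under the fold required. The list median there was -0.37, against 0.02 for all genes. In males at Day 2 and in females at Day 3, 1 gene was lower at that adjusted p. Alas1, which starts heme synthesis outside red cells, was at 1.11 (SE 0.26) and 1.14 (SE 0.30) on the log2 scale in males at Day 2 and Day 3, under the fold required for a call. In females Alas1 was at 0.77 (SE 0.29) and 0.53 (SE 0.23). In males at Day 5, 3 of the 15 genes fell, beside 3.69% of all genes called lower. These were the mitochondrial transporter genes Abcb6 and Slc25a39, by 2.07 and 1.58, and the porphyrin enzyme gene Cpox, by 1.73 on the log2 scale, with edgeR adjusted p of 0.0412, 0.0161 and 0.0127, in libraries with the mitochondrial shares given above. Cpox was called in every alternative run. The call of Abcb6 was lost with the block, with no filter, and without Day 0 mouse 1, 2 or 3 or Day 5 mouse 2, 3 or 4, and that of Slc25a39 without Day 0 mouse 3 or Day 5 mouse 2 or 3.

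Among 25 genes of heme and iron handling, 23 to 25 were tested in a contrast. In males at Day 3, 1 of 23 fell and 1 rose, beside 1.84% and 1.87% of all genes. Trf, the gene of the iron carrier transferrin, fell by 1.66 and Ncoa4, which directs ferritin to its breakdown, rose by 1.95, with edgeR adjusted p of 0.0409 and 0.0458. With the block both calls were lost, as they were without any 1 of the 4 Day 3 mice, without Day 0 mouse 3 or 4 for Trf and without Day 0 mouse 1 or 2 for Ncoa4. That of Trf was also lost without TMM factors and in 1 fit over all groups, and that of Ncoa4 with no filter. In females at Day 3, 1 of 25 fell, beside 1.97% of all genes, and in males at Day 5, 3 of 23, beside 3.69%, in libraries with 42.5% to 79.8% mitochondrial counts. Ftl1, the ferritin light chain gene, fell by 1.82 in females at Day 3 (adjusted p = 0.0465) and by 1.55 in males at Day 5 (adjusted p = 0.0270). In females this call was lost with the block, without TMM factors and in 7 of the 8 fits that leave out 1 mouse, the exception being Day 0 mouse 4. In males it was lost with the block and without Day 0 mouse 2 or 3 or Day 5 mouse 2, 3 or 4. The iron and heme transporter genes Slc11a2 and Slc46a1 fell in males at Day 5 by 1.56 and 1.55, with adjusted p of 0.0138 and 0.0158. Without TMM factors Ftl1, Slc11a2 and Slc46a1 were at -2.59, -2.51 and -2.49 in males at Day 5. Both calls of the transporter genes were lost without Day 0 mouse 1 or Day 5 mouse 2, 3 or 4, and that of Slc46a1 also without Day 0 mouse 2. Hmox1, the heme-degrading enzyme gene, was at -0.36 and -0.39 in males and at 1.34 and 1.48 in females at Day 2 and Day 3, with no call. Hp, the gene of the hemoglobin-binding haptoglobin, was at -0.12, -0.94 and 1.75 in males and at -0.96, -0.69 and 0.16 in females, and Hpx in females was at -9.26, -5.55 and -6.09, all without a call and with female Day 0 mouse 2 as the high Hpx library.

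Erythropoietin, the hormone that drives red cell formation and is made in the kidney, was hardly counted. Epo held 0 counts in males at Day 0, 9 at Day 2, 2 at Day 3 and 0 at Day 5, and 3, 3, 0 and 1 counts in females, and it did not pass the filter. Of the other 10 genes of its axis, 9 were tested in each contrast. In males at Day 5, 1 of the 9 rose, beside 3.83% of all genes, which was the receptor gene Epor, by 1.82 (SE 0.38, edgeR adjusted p = 0.0150). Without TMM factors it was at 0.31 with no call, without Day 5 mouse 4 it was at 1.46 and under the fold required, and the mitochondrial shares of these libraries were 42.5% to 79.8%. Among the other hemoglobin and globin genes, Hba-x, Hbb-bh1 and Hbb-bh2 held no count in any library and 0 genes of that list were called.

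Markers of other blood cells were counted beside the globins. At Day 2 and Day 3 no neutrophil or platelet marker was called in either sex. Between 2 and 5 of 12 neutrophil genes and 3 or 4 of 10 platelet genes were tested in these contrasts. Of all genes, 0.199% to 1.97% were called lower there, so the absence of a call among so few says little. In males at Day 5, 4 of the 12 neutrophil genes were tested and 3 rose, beside 3.83% of all genes called higher. S100a8 and S100a9 were both higher by 6.04 or 6.05 and Csf3r by 4.501 on the log2 scale. The platelet gene Ppbp, among 3 tested of 10 listed, rose by 4.65. The edgeR adjusted p were 0.00720, 0.00844, 0.0185 and 0.0169 in this order. The neutrophil list summed to 1.52 to 3.09 CPM in males at Day 0 and to 11.2 to 227 CPM at Day 5. Genes can pass the filter through the Day 5 libraries alone, so the count of 3 in 4 describes these genes only. S100a8 and S100a9 were called in every alternative run, whereas Csf3r was not called with the block, with no filter, or without Day 0 mouse 1 or 2 or Day 5 mouse 2 or 3, and Ppbp was not called without Day 5 mouse 2. S100a8 was at 3.22, 68.8, 25.3 and 10.3 CPM in male Day 5 mice 1 to 4, with the 3 higher values in the libraries that held more globin than mouse 1, and their part in the globin level was not tested. Few lymphocyte markers were called at Day 2 and Day 3. Of 14 genes, 12 and 7 were tested in males and 9 and 11 in females, and every one tested had a log2 fold change below 0. The medians were -0.72 and -1.29 in males and -1.91 and -1.81 in females, against 0.02 to 0.03 for all genes. A gene can pass the filter through its Day 0 libraries alone, so the shared direction describes the tested genes only. Of these, 0 and 1 were called lower in males, beside 0.199% and 1.84% of all genes, and 1 and 0 in females, beside 0.883% and 1.97%. The summed level of the list lay between 17.0 and 119 CPM at Day 0, 14.4 and 94.4 CPM at Day 2 and 8.79 and 11.9 CPM at Day 3 in males, and between 20.4 and 60.8, 7.72 and 11.4, and 5.78 and 18.6 CPM in females. In males the Day 2 range overlapped Day 0, whereas the Day 3 range in males and both ranges in females lay below it. The part of these cells in the globin level was not tested. The called gene was Ighm, the heavy chain gene of IgM in B cells, at -2.82 in males at Day 3 and -2.26 in females at Day 2, with edgeR adjusted p of 0.0416 and 0.0355. In males this call was lost with the block, with no filter, and without Day 0 mouse 4 (at -1.17) or any Day 3 mouse, and in females without TMM factors, in 1 fit over all groups, and without Day 0 mouse 1 or 2 or Day 2 mouse 1, 2 or 3.

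Of 14 endothelial genes, 0 were called in any of these contrasts, and their summed level was 785 to 824 CPM in males and 860 to 978 CPM in females at Day 0, against 960 to 1026 CPM and 703 to 935 CPM at Day 3. Of 9 kidney epithelium genes, the proximal tubule genes Kap and Slc34a1 were lower in males at Day 5, at log2 fold changes of -3.54 and -2.93, with edgeR adjusted p of 0.0184 and 0.0256, beside 3.69% of all genes called lower. The call of Kap was lost with the block and without Day 5 mouse 2 or 3, and that of Slc34a1 without Day 0 mouse 1 or 2 or Day 5 mouse 2, 3 or 4.

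The members followed one another closely over the 32 libraries. Pearson's r between log2 CPM was 0.996 for Hba-a1 and Hbb-bs, on different chromosomes, and between 0.969 and 0.981 for the other globin pairs. With Alas2 the globins had r between 0.853 and 0.925. These values describe libraries that share the same day differences, and with the mean of each group removed r was 0.988 for Hba-a1 and Hbb-bs and between 0.659 and 0.849 for Alas2 with the globins.

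Among 18215 other genes, those whose log2 CPM was most like the mean of the 4 globins over the 32 libraries included C1qtnf2, Psmb9, Pvalb, Rps4l, Hoxb5os, Thrsp, Immp2l, Gm38197 and Cd52, with r from 0.886 down to 0.850. With group means removed they included Fbln7, C1qtnf2, Smyd3, Kcnk2, Ptgs1, Marcks, Cnn2, Cadm1 and Itga2b, with r from 0.866 down to 0.798, and C1qtnf2 was in both sets. C1qtnf2 was at mean levels of 10.02 and 12.3 CPM in males and females at Day 0 and 4.30 and 4.69 CPM at Day 3, a far smaller range than that of the globins.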

How the data were processed

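Kidney RNA of 32 mice was sequenced as paired reads, and the authors deposited raw counts per gene and FPKM values for the same libraries. The submitters' processing notes name HTSeq, DESeq2 and GRCm39, whereas the study's methods name GRCm38. The coordinates in the deposited count table match GENCODE vM21 on GRCm38 for 5 of 5 members and are used here. All 32 columns were assigned by their labels, and no 2 libraries were identical. The labels do not say whether mice shared a litter or a batch.

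Counts were fitted with edgeR 4.0.16 (quasi-likelihood test, TMM factors, filterByExpr) in R 4.3.3, separately for 6 contrasts with Day 0, 4 of the sexes and 3 interactions. DEGs required an adjusted p under 0.05 (Benjamini-Hochberg over all genes tested) and an absolute log2 fold change over 1.5. log2 CPM used a prior count of 2. Sex differences in ratios were tested by exact permutation of log2 FPKM ratios. Windows and transcripts were compared with Biopython 1.88. The counting interval of Hbb-bt is a 95% Poisson interval and, like the floor of 3 counts, covers counting error only. On simulated counts for male Day 3 against Day 0 (15680 genes), edgeR recovered 192 of 200 changed genes with 0 false calls. The simulation gave all genes the same dispersion and held no outlying mouse. It changed only genes above a count minimum, all by the same factor up or down. It checks the code and does not measure power or false calls in these libraries.

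Named genes were the 5 members, Slc4a1, Alas1, Hmox1, Epo, Hp and Hpx, up to 3 called genes per list and direction in each contrast with Day 0 (those with the largest fold change), and the 10 genes most like the mean of the 4 globins, over all libraries and with group means removed. Some genes that this rule names are not reported here. The members and lists were chosen with earlier results of these data known. Genes set beside a list as examples (Klf1, Hba-x, Hbb-bh1, Hbb-bh2) were named after their values were seen. Alternatives were DESeq2 1.42.0 and its size factors, other filters and fold thresholds, the mouse number as a block, no mitochondrial genes, summed copies, 1 fit over all groups, library sizes without TMM factors, and each mouse left out in turn.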

Additional observations from a re-analysis of the deposited data

Results flagged for a closer look

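In 4 of the 40 combinations of a member and a group, 1 mouse lay apart from the other 3 by Dixon's criterion, which chance alone would give in about 1 in 20. In 2 combinations at least 3 mice held no count, so that any count in the fourth mouse met the criterion, and without them it was 3 of 38. Hba-a1 was at 9.74 log2 CPM in male Day 0 mouse 3, with the other 3 mice between 7.72 and 7.84. Hba-a2 was at 1.22 log2 CPM in female Day 2 mouse 1, with the others between -1.43 and -1.07. Hbb-bt was at -2.32 log2 CPM in male Day 3 mouse 1, from 3 counts, with the other 3 mice at -3.73, the value of no count, and is the one that these ties fixed. Alas2 was at 4.71 log2 CPM in female Day 5 mouse 2, with the others between -0.73 and 0.01, and this library had 77.9% of its counts on mitochondrial genes. The causes were not tested.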

How the results depend on the processing

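The median log2 fold change of the members kept its sign in each contrast with Day 0 when each mouse was left out in turn, and ran from -5.54 to -2.99 (male Day 2), -11.26 to -9.28 (male Day 3), 0.53 to 2.41 (male Day 5), -7.02 to -5.47 (female Day 2), -8.13 to -5.06 (female Day 3) and -5.16 to -0.96 (female Day 5). Without TMM factors it turned in males at Day 5, to -0.13, and was -2.96 in females at Day 5. At male Day 3 counts were the limit, with 35 counts of Hbb-bs and 3 of Hbb-bt in 4 libraries.

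The number of erythroid genes called lower went from 0 to 1 in males at Day 2 with a log2 threshold of 1, DESeq2 or 1 fit over all 8 groups, in females at Day 2 with DESeq2, no filter or at least 10 counts in every library, and at Day 5 in both sexes with a threshold of 1. It went from 1 to 0 at Day 3 in both sexes with the mouse number as a block, and without TMM factors, an alternative chosen after seeing the data, from 1 to 0 in females at Day 3 and from 0 to 4 in males at Day 5. With a mouse left out it was 0 to 1 in males at Day 2 and Day 5 and in females at Day 2 and Day 3. Members called between the sexes went from 0 to 1 at Day 5 with DESeq2, and with a mouse left out were 0 to 2 at Day 3 and 0 to 1 at Day 5, and 0 to 4 for the interaction at Day 5.

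The alpha to beta difference between the sexes at Day 5 was -0.47 from counts, with an exact permutation p of 0.0286, the smallest possible. The beta ratio at Day 2 was -0.0610 with 1 FPKM added (exact p = 0.714). With a mouse left out, the alpha to beta difference ran from -0.33 to -0.11 (Day 0), 0.55 to 1.18 (Day 3) and -0.55 to -0.41 (Day 5).

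Signs turned for values that passed no test. With the mouse number as a block, Hp was at 0.38 in males at Day 2 and 0.15 in females at Day 3, and Slc4a1 at -0.0509 in females at Day 2. Alas1 in males at Day 5 was at -0.0029 with no filter, -0.0212 with the block, -0.0149 without mitochondrial genes and -0.0492 in 1 fit over all groups. Without TMM factors Hp was at 0.19 in males at Day 2, and Slc4a1 and Alas1 were at -0.50 and -0.93 in males at Day 5. With a mouse left out, Slc4a1 ran from -0.13 to 0.48 (male Day 2) and -0.35 to 0.27 (female Day 2), Alas1 from -0.34 to 0.17 (male Day 5), and Hp from -0.46 to 1.197 and -1.29 to 0.38 (male Day 2, Day 3) and -1.28 to 0.49, -1.002 to 0.74 and -0.26 to 1.60 (female Day 2, Day 3, Day 5). Between the sexes at Day 0, Hba-a2 ran from -2.07 to 0.20, Hbb-bs from -1.41 to 0.21, Hbb-bt from -0.89 to 0.46 and Alas2 from -0.36 to 0.0276. Hba-a1 ran from -0.17 to 2.25 and Alas2 from -0.14 to 1.89 at Day 2, and Alas2 from -0.93 to 0.12 at Day 3. The interaction of Alas2 ran from -0.0241 to 1.99 at Day 2 and -0.78 to 0.25 at Day 3.

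The mouse numbers showed no steady pairing: over 40 pairs the correlation of their deviations ran from -0.42 to 0.48, and in 0 of 10 contrasts were all over 0.1. Between the sexes at Day 0 it was 0.27, -0.08, 0.45 and 0.48 for mice 1 to 4. This check cannot exclude a shared litter or batch, which the labels do not give. The block moved the number of DEGs from 115 to 5, 591 to 53 and 1127 to 1008 in males and from 234 to 52, 424 to 0 and 37 to 33 in females at Day 2, Day 3 and Day 5, from 58 to 121 and from 36 to 4 between the sexes at Day 0 and Day 5, and from 2 to 4 and from 39 to 78 for the interactions at Day 3 and Day 5. DESeq2 called 421, 841, 961 and 356 DEGs in place of 115 (male Day 2), 234, 424 and 37 (female Day 2, Day 3 and Day 5), 199, 251 and 493 in place of 58, 135 and 36 between the sexes at Day 0, Day 2 and Day 5, and 15, 39 and 444 in place of 0, 2 and 39 for the interactions. In 1 fit over all groups the DEGs were 488, 897 and 1835 in males and 1149, 1183 and 671 in females, 325, 117 and 544 between the sexes at Day 0, Day 3 (322 otherwise) and Day 5, and 3 and 740 for the interactions at Day 2 and Day 5. No filter gave 532 and 135 in females at Day 2 and Day 5 and 163 between the sexes at Day 5, and at least 10 counts in every library gave 371 (male Day 3), 441 (female Day 2), and 85, 168 and 18 between the sexes at Day 2, Day 3 and Day 5. With a mouse left out the DEGs, on which the shares over all genes rest, ran from 10 to 475, 156 to 967 and 507 to 1824 in males and from 21 to 1766, 0 to 1972 and 8 to 687 in females at Day 2, Day 3 and Day 5, and between the sexes from 0 to 68, 79 to 258, 265 to 530 and 0 to 1206. The interactions ran from 0 to 1, 0 to 6 and 0 to 859. With DESeq2 size factors 225 were called in females at Day 3. Without TMM factors they were 255, 591 and 4069 in males and 154, 0 and 191 in females, and the share of calls that were higher went from 72.2% to 88.6%, 50.4% to 78.2% and 50.9% to 2.04% in males and from 37.6% to 67.5% and 73.0% to 34.0% in females at Day 2 and Day 5. The causes were not tested.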
